A study of Homo sapiens with 2 samples.

Results

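The miR-181 family was examined in small RNA libraries of K562/ADM and K562 cells. All names in the deposited table whose stem is miR-181a, miR-181b, miR-181c or miR-181d were taken, with and without an asterisk, which gave 6 of the 934 names. K562 is a human chronic myelogenous leukemia cell line. K562/ADM is a variant derived from it by exposure to rising concentrations of adriamycin, an anthracycline drug, and then kept in 1000 ng/mL of the drug, whereas the parental K562 cells were untreated. There was 1 library of each line, made from total RNA enriched for small RNAs, and they held 6895193 reads assigned to miRs in K562/ADM and 7677738 in K562. With 1 library per line there is no replicate check, so that every difference below is between these libraries, and the intervals cover counting error only. They take the smallest value in each library's column as 1 read.

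MiRs are short RNAs that guide Argonaute proteins to messenger RNAs, mainly through the seed, bases 2 to 8 from the 5′ end, and lower the output of the messages they pair with. A hairpin precursor yields a guide strand, and less often the strand from its opposite arm, which older names mark with an asterisk. The miR-181 family is known from the blood lineage. In mice, miR-181a is abundant in the thymus, favours B-lineage cells when expressed in blood progenitors, and raises the sensitivity of T cells to antigen by repressing phosphatases of the receptor pathway.

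The guide strands are shown because they carry the same seed, in capitals, and differ only downstream of it. The sequences are those of RefSeq for GRCh38.p14, and each was also found in the GENCODE hairpin transcript on GRCh37. All 6 names were matched.

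miR-181a: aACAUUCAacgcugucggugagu
miR-181b: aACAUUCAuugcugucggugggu
miR-181c: aACAUUCAaccugucggugagu
miR-181d: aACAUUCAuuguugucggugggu

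Counted from the 5′ end and with the base of miR-181a first, miR-181b differs from miR-181a by A9U, C10U and A21G, and miR-181d by A9U, C10U, C12U and A21G. MiR-181c differs from miR-181a by 1 missing base (G11del), and miR-181d differs from miR-181b by 1 base (C12U). The sources used here do not say how reads with a mismatch were shared out between such close sequences. Among the human miRs of the RefSeq table, miR-4262 is the only other one with this seed, and it was not analysed here.

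These 4 sequences come from 6 hairpin genes in 3 places. On GRCh37, MIR181B1 (chr1:198828002-198828111) and MIR181A1 (chr1:198828173-198828282) lie on the minus strand of chromosome 1 in an intron of the lncRNA gene MIR181A1HG. MIR181A2 (chr9:127454721-127454830) and MIR181B2 (chr9:127455989-127456077) lie on the plus strand of chromosome 9, intronic to the lncRNA gene MIR181A2HG and opposite an intron of NR6A1, which encodes an orphan nuclear receptor. MIR181C (chr19:13985513-13985622) and MIR181D (chr19:13985689-13985825) lie on the plus strand of chromosome 19, within introns of the longer transcripts of NANOS3, a germ cell gene. Each pair spans 281 bp on chromosome 1, 1357 bp on chromosome 9 and 313 bp on chromosome 19. The reads of miR-181a and of miR-181b can therefore come from chromosome 1 or chromosome 9, and those of miR-181c and miR-181d from chromosome 19.

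Unlike the guide of miR-181a, which MIR181A1 and MIR181A2 share, each listed asterisk arm comes from a single hairpin. The hairpins of these arms are shown with both mature arms in capitals, the guide first.

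MIR181A2: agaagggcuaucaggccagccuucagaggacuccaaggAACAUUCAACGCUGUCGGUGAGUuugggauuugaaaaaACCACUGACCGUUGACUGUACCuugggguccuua
MIR181C: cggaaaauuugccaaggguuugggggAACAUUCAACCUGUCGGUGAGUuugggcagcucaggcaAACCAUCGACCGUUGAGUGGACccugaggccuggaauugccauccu

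MiR-181a-2* is the second arm of MIR181A2, and miR-181c* that of MIR181C. The opposite arms of MIR181A1, MIR181B1, MIR181B2 and MIR181D were not analysed here.

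The family as a whole was sparse and nearly level between the libraries, while its members were not. The 4 guide strands together had 402 reads in K562/ADM and 451 reads in K562. With the libraries scaled by the median of ratios, their sum had a K562/ADM to K562 ratio of 1.09 (95% interval 0.952 to 1.25), or 1.83 with upper-quartile factors, whose use adds 0.74 to each log2 ratio. All 6 names together took 0.00627% of the reads of K562/ADM (95% Clopper-Pearson interval 0.00569 to 0.00688) and 0.00653% of those of K562 (0.00597 to 0.00712). MiR-378, the most abundant miR, alone took 53.1% of the reads in K562/ADM and 50.6% in K562. The values of the 4 guide strands rest on 92 to 342 reads each over both libraries.

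MiR-181a, the family member most studied in lymphocytes, was lower in K562/ADM. It had 80 reads in K562/ADM against 262 in K562, a ratio of 0.374 (95% interval 0.287 to 0.482), or 2.67-fold lower. Under upper-quartile scaling its ratio was 0.626, which is not past 2-fold. In order of abundance it stood at place 256 in K562/ADM and at place 222 in K562.

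MiR-181b, whose hairpins lie beside those of miR-181a on chromosomes 1 and 9, had 85 reads in K562/ADM and 116 in K562. Its ratio of 0.897 (0.670 to 1.20) has an interval that holds 1. Its direction depends on the scaling, since with upper-quartile factors the ratio was 1.502 (1.12 to 2.004), above 1 but not past 2-fold.

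MiR-181c had 58 reads in K562/ADM and 34 in K562, a ratio of 2.09 (1.35 to 3.29). This lies just past the 2-fold limit used for calls, and the call is lost under scaling by total counts, where the ratio was 1.90, by miR-425, where it was 1.92, and by the median of ratios without 14q32, where it was 1.94. With upper-quartile factors it was 3.50 (2.25 to 5.51), with its whole interval past 2-fold.

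MiR-181d changed most among the guide strands. It had 179 reads in K562/ADM and 39 in K562, a ratio of 5.62 (3.96 to 8.17). It stood at place 202 in K562/ADM, above the other 3 guide strands, and at place 377 in K562, below miR-181a and miR-181b.

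**Figure D1:**
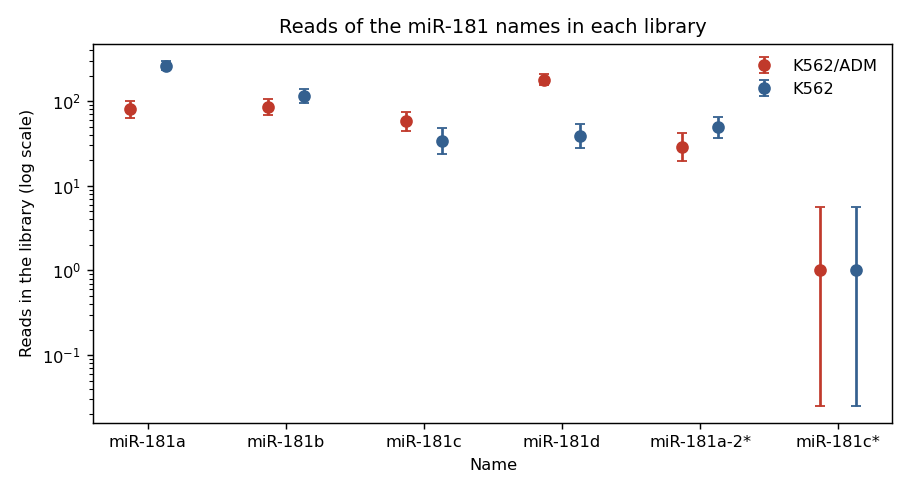
Reads of each miR-181 name (x axis) in the K562/ADM library (red) and the K562 library (blue), unscaled and on a log axis (y axis), with exact 95% Poisson intervals as bars. MiR-181a lies lower in K562/ADM (80 against 262 reads) and miR-181d higher (179 against 39) with intervals that do not overlap, while those of the other 4 names overlap between the libraries.

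A call, higher or lower, needed a difference of at least 2-fold with an interval that leaves out 1. Of the 6 family names 2 were called higher, where 11.1% of all 934 names were, and 1 was called lower, where 15.6% were. Calls were more frequent among better covered names. Of the 429 names with at least 50 reads over both libraries 38.7% were called in either direction, against 3 of the 4 guide strands, all of which pass that minimum. Among those 429 names, 18 had a ratio at or above that of miR-181d and 83 had a ratio at or below that of miR-181a, each count including the member itself. The median log2 ratio of the 4 guide strands was 0.45, that of the 429 names -0.13 and that of all 934 names -0.03. Scaling by the median of ratios itself holds the last of these close to no difference.

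The makeup of the guide strands differed between the libraries. MiR-181d supplied 44.5% of the guide strand reads in K562/ADM (95% Clopper-Pearson interval 39.6 to 49.5) and 8.65% in K562 (6.22 to 11.6). MiR-181a supplied 19.9% in K562/ADM (16.1 to 24.1) and 58.1% in K562 (53.4 to 62.7). The order of the members by reads was miR-181d, miR-181b, miR-181a and miR-181c in K562/ADM, where the intervals of miR-181b and miR-181a overlap widely. In K562 it was miR-181a, miR-181b, miR-181d and miR-181c, where those of miR-181d and miR-181c overlap. The intervals overlapped for miR-181b, with 21.1% in K562/ADM (17.3 to 25.5) and 25.7% in K562 (21.7 to 30.0). MiR-181c took 14.4% in K562/ADM (11.1 to 18.2) and 7.54% in K562 (5.28 to 10.4).

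**Figure D2:**
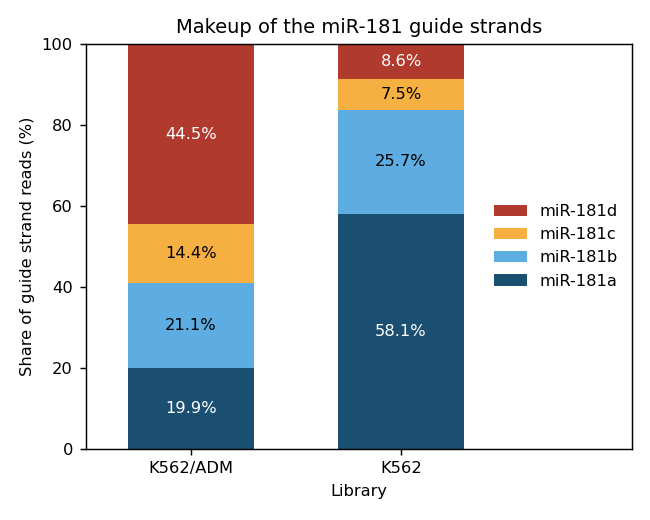
Share of the miR-181 guide strand reads (y axis, percent) supplied by each paralog in the K562/ADM and K562 libraries (x axis), out of 402 and 451 reads. MiR-181d is the largest part in K562/ADM (44.5%) and miR-181a in K562 (58.1%).

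The paralogs can also be set against each other within a library, which needs no scaling between libraries. For each of the 6 pairs of guide strands, the ratio of their reads in K562/ADM was divided by the same ratio in K562. The exact conditional 95% intervals of these changes excluded 1 for 6 of the 6 pairs. The 6 pairs are made from the same 4 guide strands, so they are not separate results. How often pairs of other names would exclude 1 was not tested. In the let-7 family with miR-98, miR-30, miR-29 and miR-15/16, the pair furthest apart at a minimum of 100 reads excluded 1 as well. Its interval was 1.61 to 1.97 in let-7 with miR-98 and 1.27 to 2.30 in miR-30. There were 2.24 reads of miR-181d for each read of miR-181a in K562/ADM and 0.149 in K562, a change of 15.0 (9.61 to 23.6). For miR-181d over miR-181b the change was 6.26 (3.93 to 10.1), and for miR-181c over miR-181a it was 5.59 (3.32 to 9.43).

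The smaller changes were between members of the same place in the genome and between miR-181c and miR-181b. MiR-181b over miR-181a changed 2.40-fold (1.62 to 3.55), with 1.06 in K562/ADM and 0.443 in K562, although the hairpins of both lie side by side on chromosome 1 and on chromosome 9. MiR-181d over miR-181c changed 2.69-fold (1.495 to 4.81), with 3.09 in K562/ADM and 1.15 in K562, although their hairpins lie together on chromosome 19. For miR-181c over miR-181b the change was 2.33 (1.36 to 4.004).

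**Figure D3:**
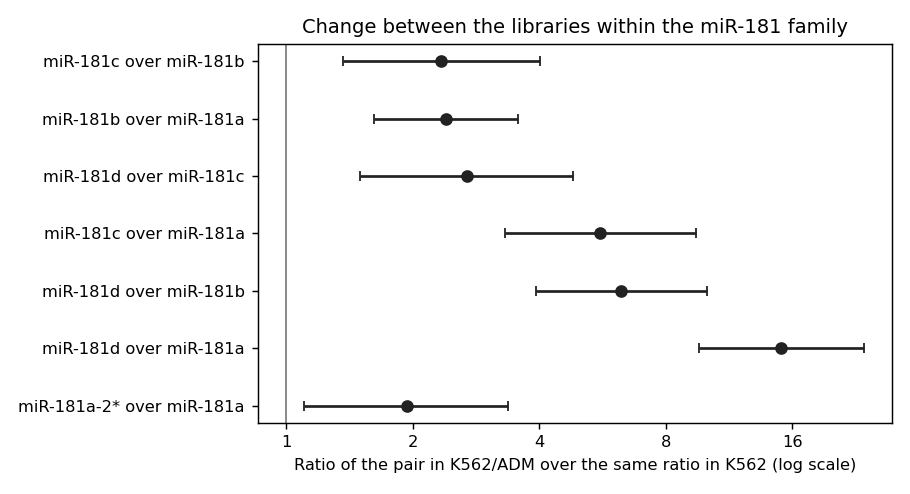
Change between the libraries (x axis, log scale) in the ratio of 2 miR-181 names, the ratio in K562/ADM over that in K562, for the 6 pairs of guide strands and for miR-181a-2* over miR-181a (y axis). Points are changes and bars exact conditional 95% intervals. All bars lie to the right of 1, and miR-181d over miR-181a is the largest at 15.0.

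The guide strands were also summed by place, a grouping chosen after the values had been seen. MiR-181c and miR-181d together had 237 reads in K562/ADM and 73 in K562, a ratio of 3.98 (95% interval 3.05 to 5.24). MiR-181a and miR-181b together had 165 reads in K562/ADM, against the 262 and 116 reads of these members in K562, a ratio of 0.535 (0.442 to 0.643), in which miR-181a was lower and the interval of miR-181b alone holds 1. With upper-quartile factors the ratio of this sum was 0.895 (0.741 to 1.08), an interval that holds 1, and that of the chromosome 19 pair was 6.65 (5.10 to 8.77). The sum of miR-181a and miR-181b was not called with the main scaling. It was called lower under total counts (0.486), miR-425 (0.492) and the median of ratios without 14q32 (0.497). The chromosome 19 pair made up 59.0% of the guide strand reads in K562/ADM (54.0 to 63.8) and 16.2% in K562 (12.9 to 19.9), and its change relative to the other pair was 7.44 (5.34 to 10.4).

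Because miR-181b and miR-181d differ by 1 base, and miR-181a and miR-181c by 1 missing base, the sums of these close sequences were compared as well, a grouping also chosen after the values had been seen. MiR-181b and miR-181d together had 264 reads in K562/ADM and 155 in K562, a ratio of 2.09 (1.704 to 2.56). MiR-181a and miR-181c together had 138 reads in K562/ADM and 296 in K562, a ratio of 0.571 (0.463 to 0.701). With upper-quartile factors the second ratio was 0.956 (0.775 to 1.17), an interval that holds 1, and the first was 3.49 (2.85 to 4.29). The change of the first sum relative to the second, which needs no scaling, was 3.65 (2.73 to 4.90). Exchange of reads within either close pair leaves these sums as they are. Any part of it in the values of single members was not tested.

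MiR-181a-2*, the arm that comes from chromosome 9 alone, was the asterisk name with enough reads to compare. It had 29 reads in K562/ADM and 49 in K562, a ratio of 0.725 (0.441 to 1.17), which was not called. Set against the guide, there were 36.25 reads of miR-181a-2* per 100 reads of miR-181a in K562/ADM and 18.7 in K562, a change of 1.94 (1.10 to 3.36). MiR-181a reads can come from MIR181A1 and from MIR181A2, so that this quantity can mix arm use with the share of each gene, and these cannot be told apart. For comparison, the same change was computed in the 55 other guides with an asterisk name of the same number, at least 50 reads for each arm over both libraries and reads of both in each library. It had a median of 0.824, ranged from 0.211 to 2.79, and was below 1 for 38 of them. In 2 of these 55 it was at or above that of miR-181a-2*. Asterisk names with a copy number, as miR-181a-2* has, were not paired with a guide that lacks the number. The 55 are therefore not matched to miR-181a-2* in this respect.

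MiR-181c* had 1 read in K562/ADM and 1 read in K562. Its ratio of 1.22 has an interval from 0.0156 to 96.1 and carries no information on a difference. It made up 1.69% of the reads of both MIR181C arms in K562/ADM (95% Clopper-Pearson interval 0.0429 to 9.09) and 2.86% in K562 (0.0723 to 14.9).

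The better covered paralogs of the 4 other multi-locus families compared here moved apart less. Over guide strands with at least 100 reads, the log2 ratios of the miR-181 family ran from -1.42 for miR-181a to 2.49 for miR-181d, a range of 3.91. MiR-181c, with 92 reads in all, is left out by that minimum and lies between them. In the let-7 family with miR-98, tumor suppressor miRs in many tissues, 6 guide strands ranged over 0.83, from let-7g at -0.45 to let-7f at 0.39. In the miR-30 family 5 guide strands ranged over 0.77, and in the miR-29 family, which targets collagen messages, 3 ranged over 1.36. In the miR-15/16 family, which represses BCL2, the 4 guide strands ranged over 2.20, from miR-15b at -0.44 to miR-195 at 1.76. The families were not matched in abundance, and no miR-181 guide has 1000 reads. At a minimum of 1000 reads the range fell to 0.16 in miR-15/16 and 0.48 in miR-29. It was 0.83 in let-7 with miR-98 and 0.71 in miR-30. Whether the wider range of miR-181 goes with its low read numbers was not tested.

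The change of the member with the highest ratio over the one with the lowest, a pair picked by its values in each family, was 15.0 (9.61 to 23.6) in the miR-181 family, 4.58 (3.55 to 5.93) in miR-15/16, 2.57 (2.05 to 3.23) in miR-29, 1.78 (1.61 to 1.97) in let-7 with miR-98 and 1.703 (1.27 to 2.30) in miR-30. The intervals do not allow for that picking, so whether they overlap is a description and not a test. At that minimum of 100 reads the interval of the miR-181 family does not overlap those of these 4 families. At a minimum of 10 reads those of 2 of them overlap it. In miR-15/16, miR-497 enters, and its change over miR-15b is 5.17 (2.33 to 12.6). The let-7 range rises to 3.81 at that minimum, because let-7b enters with 11 reads in K562/ADM and 2 in K562, and its change of 14 over let-7d has an interval from 2.35 to 142.

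**Figure D4:**
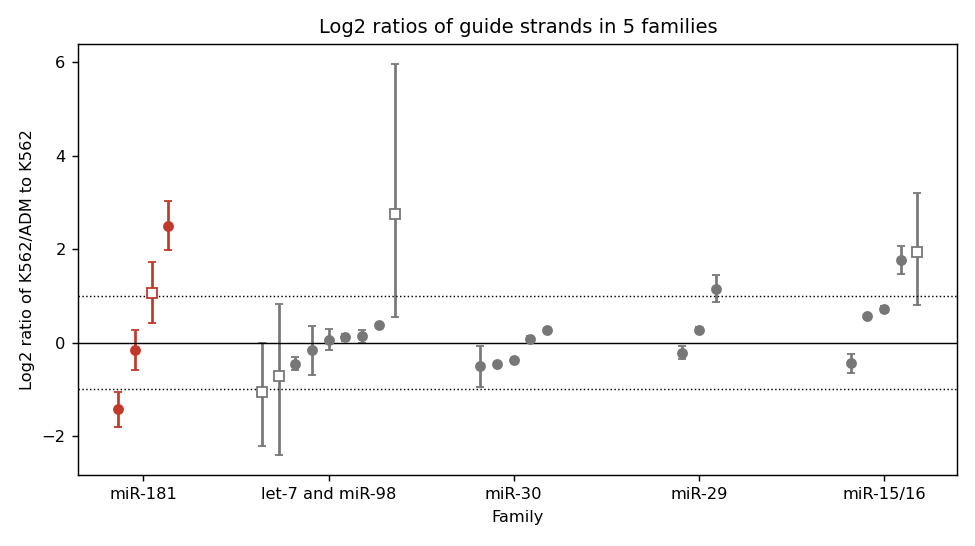
Log2 of the K562/ADM to K562 ratio (y axis) for the guide strands of the miR-181 family (red) and of 4 other families (grey) with at least 10 reads over both libraries, ordered by ratio within each family (x axis). Filled circles have at least 100 reads, open squares fewer, bars are exact 95% counting intervals, and dotted lines mark 2-fold differences. The miR-181 guides run from -1.42 to 2.49, while the filled circles of the other families lie between -0.51 and 1.76.

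Of a list of 8 other miRs of blood cells, 6 were analysed here, and miR-150 and miR-155 were not. Each of the 6 was more abundant than the miR-181 family in both libraries. Of these 6, 0 were called higher or lower, where 38.7% of the names with at least 50 reads were called. With upper-quartile factors 2 were called higher, miR-142-3p at 2.96 and miR-144 at 2.29, and all 6 ratios were above 1, while the other scalings called none of the 6. MiR-142-3p, found across blood cells, had 507475 reads in K562/ADM and 351692 in K562, with a ratio of 1.77 (1.76 to 1.77), and miR-142-5p from the same hairpin a ratio of 1.13 (1.10 to 1.16). MiR-451, which is processed by Argonaute 2 and marks erythroid cells, had 19738 reads in K562/ADM and 30470 in K562, with a ratio of 0.793 (0.779 to 0.808). The other erythroid miRs were miR-144 at 1.37 (1.32 to 1.42) and miR-486-5p at 0.810 (0.790 to 0.831). MiR-223, a myeloid miR, had 1246 reads in K562/ADM and 1712 in K562, with a ratio of 0.891 (0.828 to 0.959). The median log2 ratio of the 6 names was 0.01.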

How the data were processed

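Small RNA libraries of K562/ADM and K562 cells, 1 each, were sequenced. The authors collapsed the reads, left out sequences seen once, and used Bowtie within miRanalyzer to map the others against miRBase. The submitters' processing notes also name CASAVA 1.7.0, DESeq and hg18. The deposited signal is the read count of a miR divided by the size factor of its library. The deposited table also holds fold changes and p-values of the authors' own comparison, which were not used.

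Within each column the smallest value above 0 was taken as 1 read, which made 100% of the values whole reads within a relative tolerance of 0.001. This unit gave 124 names in K562/ADM and 100 in K562 a single read, and 459 and 438 names an odd number of reads. The sources used here do not say how single reads arise when sequences seen once were left out, and all intervals rest on this unit. The median of ratios over all names gave the scaling. Ratios carry exact 95% intervals from the split of the reads (Clopper-Pearson), and changes between pairs exact conditional intervals. Without replicates no count model across the miRs could be tested, and no p-value was computed.

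All names of the family, the analysed names of the blood miR list, and the 3 names nearest in ratio to each of the 2 most abundant guides are reported. The members and lists were chosen with earlier results of these data known. Alternatives were other scalings, read minimums, call rules, an added count, other sums and denominators. Positions are from GENCODE on GRCh37 and sequences from RefSeq. Python 3.11.15, scipy 1.17.1, R 4.3.3 and edgeR 4.0.16 (TMM and upper-quartile factors) were used.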

Additional observations from a re-analysis of the deposited data

How the results depend on the processing

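Of the 93 values recomputed under an alternative, 76 stayed within the 95% interval of the main value, or within 1.5 times for the count of calls, and 17 did not. Upper-quartile scaling raised every log2 ratio by 0.74. The K562/ADM to K562 ratio was then 0.626 for miR-181a, which was not called, 1.21 for miR-181a-2*, 1.502 for miR-181b, 3.50 for miR-181c, 9.41 for miR-181d and 1.83 for the 4 guide strands together. For sums recomputed after the values had been seen it was 0.895 for miR-181a with miR-181b, 6.65 for miR-181c with miR-181d, 0.956 for miR-181a with miR-181c and 3.49 for miR-181b with miR-181d, the last of which was called with the main scaling and not under total counts (1.90), miR-425 (1.92) or the median of ratios without 14q32 (1.94). Total counts, miR-425 and the median of ratios without 14q32 shifted log2 ratios by -0.14, -0.12 and -0.10, and each left 1 name called higher and 1 lower. Over all 934 names, 41.6% of the called names were higher with the main scaling and 70.1% under the upper quartile. Without miR-181a the ratio of the summed guides was 2.09. Leaving miR-378 out of the total, the family held 0.0133% of the reads of K562/ADM and 0.0132% of those of K562, and without asterisk names its share in K562 was 0.00587%. At a minimum of 10 reads the range of log2 ratios was 3.81 in let-7 with miR-98, and at 1000 reads it was 0.48 in miR-29 and 0.16 in miR-15/16, while no miR-181 guide has that many. With the whole interval required past 2-fold, miR-181d was called higher and miR-181a lower. Adding the asterisk reads to the guides moved no change between 2 paralogs out of its interval. No paired analysis was possible because there is 1 library per cell line, and for the same reason no library could be left out. Depth limits miR-181c* most, with 2 reads in all.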

Other observations

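The miRs of other genes within 500 kb of the family's hairpins were looked up after the values had been seen. In GENCODE on GRCh37 the listed ones lie on chromosome 19 alone, 38.0 kb from MIR181C. There, miR-23a had 3653 reads in K562/ADM and 1744 in K562, a ratio of 2.57 (95% interval 2.42 to 2.72), which was called higher. MiR-27a, from the next hairpin, had 9985 reads in K562/ADM and 6962 in K562, a ratio of 1.76 (1.703 to 1.81), while miR-27a* had 688 and 1036 reads in K562/ADM and K562 and a ratio of 0.813 (0.737 to 0.896). MiR-23a* had 3 reads in K562/ADM and 0 in K562. MiR-24, which RefSeq places on chromosome 19 beside these miRs and on chromosome 9, had 17093 reads in K562/ADM and 8669 in K562, a ratio of 2.41 (2.35 to 2.48). MiR-24 was also called higher, and miR-27a was not called. MIR23A and MIR27A lie on the minus strand and MIR181C and MIR181D on the plus strand. The guides of this neighbouring cluster and miR-181c and miR-181d had ratios above 1. With a median log2 ratio of -0.03 over all 934 names, a ratio above 1 is common. A call of higher was made for 11.1% of all names, and for 62 of the 429 names with at least 50 reads. Any link between these miRs was not tested.

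Among names with a mean scaled value within 2-fold of the most abundant guides, those nearest in log2 ratio were found over these 2 libraries, which is a weak measure of likeness. Of 99 such names, the nearest to miR-181a were miR-641 with 92 reads in K562/ADM and 307 in K562 (ratio 0.367), miR-3158 with a ratio of 0.362 and miR-1292 with a ratio of 0.411. Of 102 such names, the nearest to miR-181d were miR-328 with 91 reads in K562/ADM and 18 in K562 (ratio 6.19), miR-3613-5p with a ratio of 3.65 and miR-335* with a ratio of 3.64.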
